A study of Mus musculus with 14 samples.

Results

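The 7 genes described here are Casp1, the caspases Casp2, Casp4, Casp6, Casp8 and Casp9, and Il18, taken by symbol from a table of 14449 genes, and all 7 were among the 12329 genes that passed the filter on low values. They were measured in regulatory T cells, sorted as CD4+Foxp3eGFP+ lymph node cells from mice of the BALB/c strain on postnatal day 35. Libraries came from Il1rn-/- mice (7) and wild-type mice (7). Il1rn encodes the secreted antagonist that keeps IL-1 off its signalling receptor, and both genotypes carry the Foxp3eGFP reporter that the sort used. The sample titles divide the libraries by a letter into set a (3 Il1rn-/-, 3 wild type) and set b (4 Il1rn-/-, 4 wild type), and the labels do not say what the letter means. The labels do not state whether each library came from its own animal, so a p-value measures only the spread between libraries, which may be technical. The 7 genes were chosen by symbol with their log2 CPM values in both genotypes and both sets known, so their genotype differences are given as a description with no test.

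Caspases are cysteine proteases that are made as inactive precursors and cut their substrates after aspartate. Caspase-1 is activated on inflammasomes, where it cuts the precursors of IL-1β and IL-18 and the pore-forming protein gasdermin D. Mouse Casp4, also called caspase-11, senses cytosolic lipopolysaccharide. Caspase-8 starts death-receptor apoptosis and restrains necroptosis, caspase-9 is activated on the apoptosome, caspase-2 on the PIDDosome, and caspase-6 is mainly an executioner. Il18 encodes the cytokine whose precursor caspase-1 processes, and IL-18 is known for acting on T cells and natural killer cells.

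Casp1 and Casp4 are neighbours on chromosome 9, on the same strand. The 250 bases before a RefSeq start of each gene are shown because the 2 genes varied together in part of the libraries, as described further on. Casp2 and Casp6 also varied with Casp1, in other libraries. The Casp1 window is chr9:5298267-5298516 and the Casp4 window is chr9:5308599-5308848, both on the plus strand of GRCm38.p6, read 5′ to 3′. Capitals mark the letters of an NF-kB-like motif, GGGNNTTCC, searched on both strands.
Casp1: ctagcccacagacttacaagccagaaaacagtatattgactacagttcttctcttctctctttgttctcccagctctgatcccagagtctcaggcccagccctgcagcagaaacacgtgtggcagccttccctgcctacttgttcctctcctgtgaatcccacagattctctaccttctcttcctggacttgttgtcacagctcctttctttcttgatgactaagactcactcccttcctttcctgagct
Casp4: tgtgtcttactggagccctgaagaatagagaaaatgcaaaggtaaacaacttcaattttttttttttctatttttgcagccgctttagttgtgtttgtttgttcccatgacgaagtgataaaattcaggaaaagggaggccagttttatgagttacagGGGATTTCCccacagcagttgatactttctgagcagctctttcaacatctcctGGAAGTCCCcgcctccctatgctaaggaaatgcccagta
The Casp4 window held 2 matches, GGGATTTCC at 92 bases and GGAAGTCCC at 39 bases before the start, and the Casp1 window held none. RefSeq gives Casp4 a second start, whose window begins at 5308610 and holds the same 2 matches, at 103 and 50 bases before it. The interferon-stimulated response element core, GAAA followed by any 2 bases and GAAA again, and the gamma-activated site TTCNNNGAA were searched in the same way, on both strands, and neither window held them. Over 32851 RefSeq windows of this length, 4.98% held GGGNNTTCC, 2.98% held the response element core and 7.02% held TTCNNNGAA. These are matches of letters and not measured binding sites.

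The libraries held 952021 to 3756559 reads in the genes of the table. They fell into 8 deep libraries, in which 20.3% to 39.95% of reads belonged to Rn45s, the precursor of ribosomal RNA, and 1654868 to 2805693 reads lay outside it, and 6 shallow ones, in which Rn45s took 59.6% to 65.8% and 384360 to 905988 reads lay outside it. All of set a was deep. In set b the 4 wild-type libraries and Il1rn-/- 1-b and 2-b were shallow, while Il1rn-/- 3-b and 4-b were deep. Y-linked transcripts were present in Il1rn-/- 3-b and 4-b and in wild type 1-a and 2-a. The targeted gene, Il1rn, has no row among the genes analysed here and gave no check of the genotype labels. All 8 regulatory T cell markers were in the table, with a summed level of 1779 to 2885 CPM, the reads per scaled library size on a common scale, in Il1rn-/- libraries and 1718 to 2819 CPM in wild-type libraries. Of 12 monocyte and macrophage markers, 10 were in the table, with a summed level of 48.1 to 139 CPM in Il1rn-/- and 30.2 to 197 CPM in wild type, most of it Ccr2, which T cells also express. Lyz2 was at 0 in none of the 14 libraries (3 to 81 reads), Itgam in 2 (up to 16 reads), Cd68 in 3 (up to 10 reads) and Csf1r in 5 (up to 6 reads), while Fcgr1 was at 0 in 12, Mertk in 11 and Cd14 in 10. In bulk libraries fewer cells of a type and less RNA per cell cannot be told apart.

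Per length, Casp8 had the highest level of the 7 genes and Il18 the lowest. Lengths were the annotated exons of each gene in GENCODE M21, and the median over 14 libraries was 39.7 CPM per kb for Casp8 (31.2 to 60.8) and 11.6 CPM per kb for Casp1 (3.94 to 22.9). Casp2 followed at 6.41 CPM per kb (4.30 to 7.26), Casp6 at 4.27 (2.27 to 5.83) and Casp4 at 3.28 (1.21 to 7.61). Casp9 had 1.80 CPM per kb (0.619 to 5.25) and Il18 0.906 (0.0809 to 2.33), where the lowest value stands for 0 reads.

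The order was not fixed between all neighbours. Casp8 exceeded Casp1 in 14 of 14 libraries, and Casp2 exceeded Casp6 in 14 of 14. Casp1 exceeded Casp2 in 10 of 14 libraries, and the 4 exceptions were the wild-type libraries of set b. Casp6 exceeded Casp4 in 8 of 14 libraries but in only 2 of the 8 deep ones, so the order of these neighbours turned between deep and shallow libraries. Casp4 exceeded Casp9 in 9 of 14 libraries, 8 of them deep, and Casp9 exceeded Il18 in 11 of 14.

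**Figure D1:**
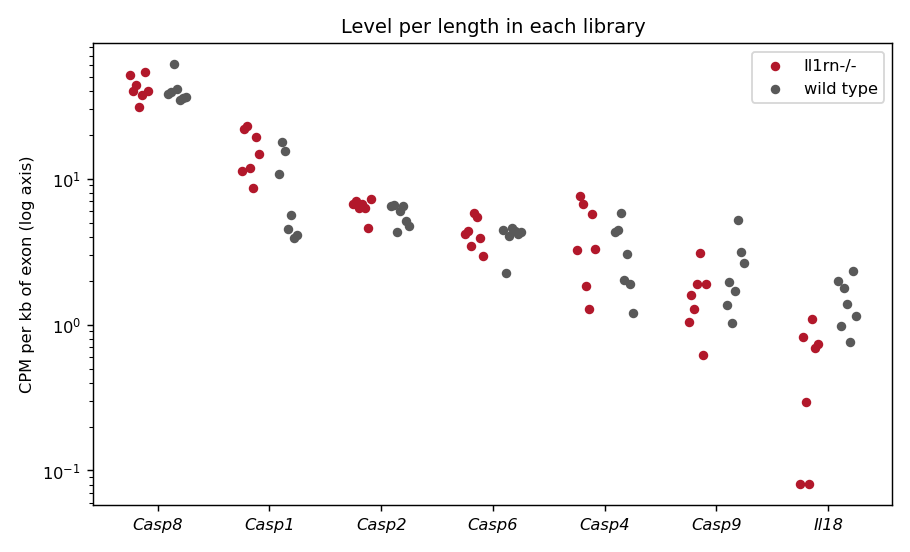
Level per length of the 7 genes in CPM per kb of annotated exon, on a log axis, with 1 point per library, Il1rn-/- left of wild type for each gene. Casp8 sits at 31.2 to 60.8 CPM per kb, above the 6 other genes in every library, and the 2 lowest Il18 points, at 0.0809, stand for 0 reads.

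Casp1 transcripts were highest in the Il1rn-/- libraries and in wild-type set a, and lowest in wild-type set b. On the log2 CPM scale Casp1 was at 4.07, 5.05 and 5.10 in Il1rn-/- 1-a to 3-a, against 4.01, 4.75 and 4.54 in wild type 1-a to 3-a. In set b Casp1 was at 4.16, 3.70, 4.85 and 4.48 in Il1rn-/- 1-b to 4-b, against 2.77, 3.08, 2.56 and 2.61 in wild type 1-b to 4-b. The genotypes overlapped in set a and did not overlap in set b, where every Il1rn-/- value lay above every wild-type value. Of the 12329 tested genes, 2.36% had all Il1rn-/- libraries of set b above all wild-type ones and 1.92% had them below, and Casp1 was the only one of the 7 genes that did. Over all 14 libraries none of the 7 was apart in this way in either direction, against 0.00811% of tested genes above and 0.0243% below.

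The mean Casp1 level was 4.49 ± 0.54 log2 CPM in Il1rn-/- libraries and 3.47 ± 0.94 in wild-type libraries (SD, n = 7 each). The difference, with the letter as a covariate in limma, was 1.01 ± 0.27 on the log2 scale (SE, 95% interval 0.46 to 1.57), a fold of 2.02. By limma voom on the recovered reads, with the same covariate, it was lower, at 0.68 ± 0.28 (0.10 to 1.25). Each of the 7 Il1rn-/- libraries exceeded the mean of wild type, but that mean pooled 3 deep and 4 shallow libraries, against 5 and 2 in Il1rn-/-. Compared within sets, this held for 2 of 3 Il1rn-/- libraries in set a and 4 of 4 in set b. Across all genes limma on the log2 values called none at an adjusted p of 0.05 (0% of 12329). At an unadjusted p under 0.05 there were 679 genes (5.51%). Limma voom on the recovered reads also called none, with 733 unadjusted.

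Split by the letter, the Casp1 difference was 0.31 ± 0.35 in set a (95% interval -0.44 to 1.05) and 1.54 ± 0.31 in set b (0.90 to 2.19). The difference between the sets was 1.24 ± 0.47 (0.25 to 2.22), given as a description like the other values of the 7 genes. Across all genes, limma called 0% of 12329 for a difference between sets, with 968 (7.85%) at an unadjusted p under 0.05 and none called by limma voom. Within each set alone 0% of tested genes were called as well, with 243 genes in set a (1.97%) and 1848 in set b (15.0%) at an unadjusted p under 0.05.

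Depth moved with the Casp1 level. In deep libraries Casp1 averaged 4.71 ± 0.43 log2 CPM in Il1rn-/- (n = 5) and 4.43 ± 0.38 in wild type (n = 3). In shallow libraries it averaged 3.93 ± 0.32 in Il1rn-/- (n = 2) and 2.76 ± 0.23 in wild type (n = 4). The Il1rn-/- values overlapped the wild-type values among deep libraries and lay above all of them among shallow ones, as did 6.29% of tested genes, with 5.22% below. The genotype difference was 0.28 ± 0.28 (95% interval -0.38 to 0.93) in deep libraries alone and 1.18 ± 0.29 (0.45 to 1.91) in shallow libraries alone. It was 0.65 ± 0.23 (0.17 to 1.13) over all libraries with the library group in place of the letter. What part depth or the share of Rn45s has in the Casp1 difference was not tested.

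The reads behind these values were few in the lowest libraries. Casp1 had 5, 10, 11 and 12 reads in the shallow wild-type libraries, 25 and 29 reads in the shallow Il1rn-/- libraries, 66 to 156 reads in the deep Il1rn-/- libraries and 57 to 132 reads in the deep wild-type libraries. The 25 reads of Il1rn-/- 2-b had an exact 95% Poisson interval of 16.2 to 36.9 reads, and the 5 reads of wild type 3-b one of 1.62 to 11.7. Such intervals cover counting error only, because the reads carry no molecular identifiers and can be copies of 1 molecule. The summed monocyte and macrophage markers were 53.9 to 197 CPM in deep libraries and 30.2 to 55.8 CPM in shallow ones, so they moved with depth as Casp1 did. Medians of B cell (56.5 and 31.8 CPM) and stromal and endothelial markers (80.1 and 75.7) were also higher in deep libraries. Medians of dendritic cell (93.4 and 116 CPM), CD8 T and NK cell (17.7 and 38.7) and neutrophil markers (0 and 3.58) were higher in shallow ones. The stromal and endothelial sum held 3 of 7 markers, mostly Pecam1 (56 to 586 reads), with Col1a1 at 0 to 11 and Pdgfra at 0 to 3. The dendritic cell sum held 7 of 11 markers, mostly Cd74, H2-Ab1 and H2-Aa, while Xcr1, Zbtb46, Siglech and Ccl22 had at most 14 reads. The neutrophil sum held 2 of 7 markers, Csf3r (0 to 4 reads) and Cxcr2 (0 to 8). The part of such cells in the Casp1 level was not tested.

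**Figure D2:**
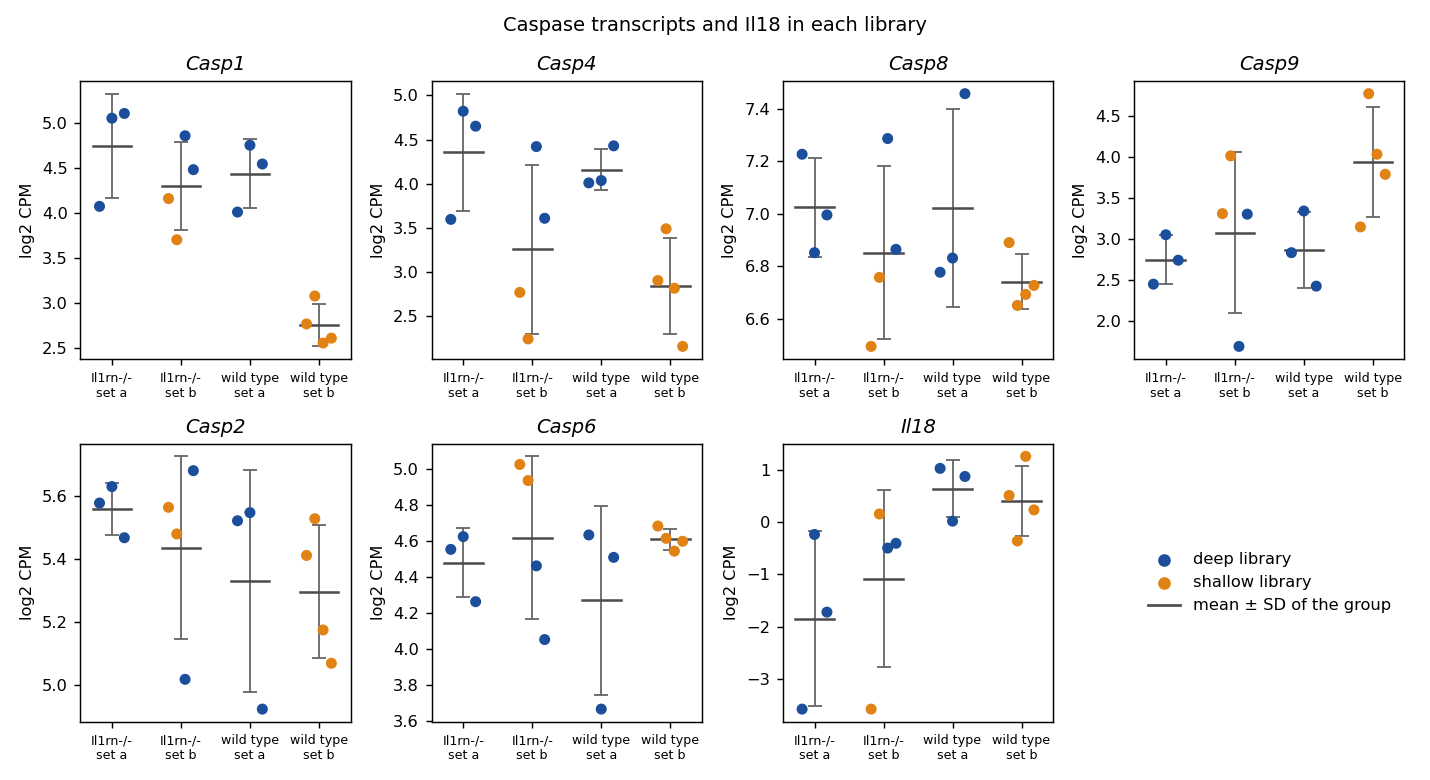
Log2 CPM of the 7 genes in each library (points, blue for deep and orange for shallow libraries) by genotype and set, with the mean ± SD of each group. The Casp1 panel shows the 4 wild-type libraries of set b at 2.56 to 3.08, below the 10 other libraries at 3.70 to 5.10, and the Il18 panel shows 2 Il1rn-/- libraries at the value that stands for 0 reads.

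Casp4, the lipopolysaccharide sensor next to Casp1, was higher in every deep library than in any shallow one, and its genotypes overlapped. Casp4 was at 3.60, 4.82 and 4.65 log2 CPM in Il1rn-/- 1-a to 3-a, against 4.01, 4.04 and 4.43 in wild type 1-a to 3-a. In set b Casp4 was at 2.77, 2.25, 4.42 and 3.61 in Il1rn-/- 1-b to 4-b, against 2.91, 3.49, 2.82 and 2.16 in wild type 1-b to 4-b. All deep libraries lay above all shallow ones for 8.35% of tested genes, with 6.56% the other way, and Casp4 was the only one of the 7 among them. Deep libraries averaged 4.20 ± 0.46 log2 CPM (n = 8) and shallow ones 2.73 ± 0.49 (n = 6).

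The genotype difference of Casp4 was 0.32 ± 0.32 over all libraries (95% interval -0.34 to 0.99), from means of 3.73 ± 0.97 log2 CPM in Il1rn-/- and 3.41 ± 0.81 in wild type (n = 7 each). With the library group in place of the letter it was -0.10 ± 0.27 (-0.66 to 0.45). Set a gave 0.20 ± 0.49 and set b gave 0.42 ± 0.43, a difference between sets of 0.22 ± 0.65 (-1.14 to 1.58).

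The division of reads between the 2 neighbouring genes gives a comparison within each library. Casp1 took 58.2%, 54.0%, 57.8%, 72.5%, 73.5%, 57.5% and 64.7% of the reads of the pair in Il1rn-/- 1-a to 3-a and 1-b to 4-b, against 50%, 62.2%, 52.0%, 47.6%, 42.9%, 45.5% and 57.9% in the wild-type libraries in the same order. The mean share was 62.6% ± 7.80 in Il1rn-/- and 51.1% ± 6.86 in wild type (SD, n = 7 each). The 2 shallow Il1rn-/- libraries had the 2 highest shares, and the genotypes overlapped among deep libraries, at 54.0% to 64.7% in Il1rn-/- and 50% to 62.2% in wild type. The exact binomial 95% interval was 55.6% to 87.1% for the 34 reads of Il1rn-/- 2-b, and 16.7% to 76.6% for the 11 reads of wild type 3-b. No 32-base stretch of Casp1 transcripts was shared with another gene, and 1.31% of those of Casp4 were, none of them with Casp1.

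**Figure D3:**
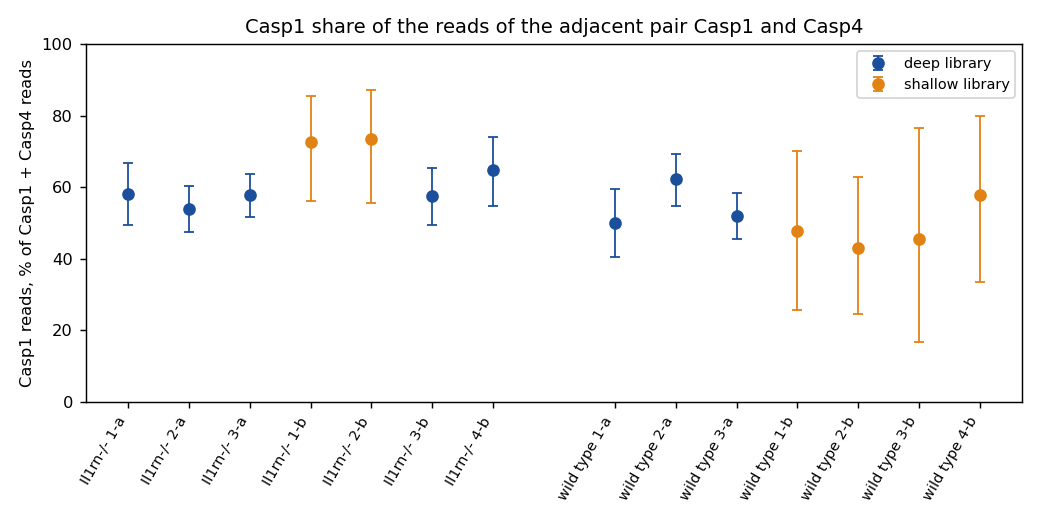
Casp1 reads as a percentage of Casp1 plus Casp4 reads in each library, with exact binomial 95% intervals, Il1rn-/- left of wild type. Il1rn-/- 1-b and 2-b, at 72.5% and 73.5%, are the highest of the 14 libraries, and the intervals of the shallow wild-type libraries are the widest.

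Casp8, the caspase of death receptors and the most abundant of the 7 per length, had genotype means that lay 0.06 apart on the log2 scale. Casp8 was at 7.23, 6.85 and 7.0 log2 CPM in Il1rn-/- 1-a to 3-a, against 6.78, 6.83 and 7.46 in wild type 1-a to 3-a. In set b it was at 6.49, 6.76, 7.29 and 6.86 in Il1rn-/- 1-b to 4-b, against 6.89, 6.65, 6.69 and 6.73 in wild type 1-b to 4-b. The highest library was wild type 3-a and the lowest Il1rn-/- 1-b, and the genotypes overlapped in both sets. The means were 6.93 ± 0.27 log2 CPM in Il1rn-/- and 6.86 ± 0.28 in wild type (n = 7 each), with a difference of 0.06 ± 0.15 (95% interval -0.24 to 0.37). The sign of this difference turned when the library group replaced the letter (-0.03 ± 0.13) and when reads were scaled outside Rn45s (-0.05 ± 0.15), a scaling under which the median of all tested genes was -0.07 in place of 0.04. Some 8.05% of the 32-base stretches of Casp8 transcripts were shared with other genes.

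Casp9, the caspase of the apoptosome, had its 2 highest values in shallow wild-type libraries. Casp9 was at 2.45, 3.05 and 2.74 log2 CPM in Il1rn-/- 1-a to 3-a, against 2.83, 3.34 and 2.42 in wild type 1-a to 3-a. In set b it was at 3.31, 4.01, 1.69 and 3.30 in Il1rn-/- 1-b to 4-b, against 3.14, 4.77, 4.03 and 3.79 in wild type 1-b to 4-b. The genotypes overlapped in both sets, and the lowest library was the deep Il1rn-/- 3-b. The means were 2.93 ± 0.74 log2 CPM in Il1rn-/- and 3.47 ± 0.79 in wild type (n = 7 each), with a difference of -0.54 ± 0.34 (95% interval -1.26 to 0.18).

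Depth ran against Casp9, opposite to Casp1 and Casp4. Deep libraries averaged 2.73 ± 0.54 log2 CPM and shallow ones 3.84 ± 0.58, and the genotype difference was -0.24 ± 0.31 (-0.88 to 0.40) with the library group in place of the letter. The gene rested on 10 to 43 reads per library. In GENCODE M21 its exons overlap those of Cela2a and Ctrc on the opposite strand by 94 bases, and strand handling is not given in the sources used here, although neither gene is in the table.

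Casp2, the caspase of the PIDDosome, had the smallest SD of the 7 genes over all 14 libraries, 0.25 log2 CPM. Casp2 was at 5.47 to 5.63 log2 CPM in the 3 Il1rn-/- libraries of set a, against 4.92 to 5.55 in the 3 wild-type libraries. In set b the 4 Il1rn-/- libraries ranged over 5.02 to 5.68 and the 4 wild-type libraries over 5.07 to 5.53, so both sets overlapped. The means were 5.49 ± 0.22 log2 CPM in Il1rn-/- and 5.31 ± 0.25 in wild type (n = 7 each), with a difference of 0.18 ± 0.15 (95% interval -0.14 to 0.49), or 0.18 with the library group in place of the letter. Without the 4 libraries that held Y-linked transcripts, and with the library group as covariate, it was 0.37 ± 0.15 (0.05 to 0.69). That was the highest Casp2 difference of 25 alternatives, which ran from 0.07 to 0.37. The same setting gave 0.82 ± 0.30 (0.18 to 1.47) for Casp1 and 0.23 for Casp6. It gave -0.24 for Casp4, -0.23 for Casp8, -0.06 for Casp9 and -2.34 for Il18.

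Casp6, an executioner that also cuts nuclear lamins, was at 4.55, 4.62 and 4.26 log2 CPM in Il1rn-/- 1-a to 3-a, against 4.63, 3.66 and 4.51 in wild type 1-a to 3-a. In set b it was at 5.03, 4.94, 4.46 and 4.05 in Il1rn-/- 1-b to 4-b, against 4.68, 4.61, 4.54 and 4.60 in wild type 1-b to 4-b. The highest values were the 2 shallow Il1rn-/- libraries, which lay above the 4 shallow wild-type libraries, as 6.29% of tested genes did. The difference was 0.10 ± 0.19 over all libraries (95% interval -0.31 to 0.50), from means of 4.56 ± 0.35 log2 CPM in Il1rn-/- and 4.46 ± 0.36 in wild type (n = 7 each). Among shallow libraries alone (2 Il1rn-/-, 4 wild type) it was 0.37 ± 0.10 (0.12 to 0.63). Among deep libraries alone it was 0.12 ± 0.25 (-0.46 to 0.70), and with reads scaled outside Rn45s it was -0.02 ± 0.22.

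The differences between sets of these 4 caspases were 0.11 ± 0.30 for Casp8 (95% interval -0.53 to 0.74), -0.74 ± 0.69 for Casp9 (-2.18 to 0.70), -0.09 ± 0.31 for Casp2 (-0.74 to 0.57) and -0.20 ± 0.40 for Casp6 (-1.03 to 0.63). All 4 intervals extend to both sides of 0, so neither direction is set by these data.

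Il18, the cytokine that caspase-1 processes, was close to the detection limit in every library. It had 0, 3 and 1 reads in Il1rn-/- 1-a to 3-a and 0, 2, 2 and 2 in Il1rn-/- 1-b to 4-b, against 7, 4 and 10 reads in wild type 1-a to 3-a, with 2, 1, 2 and 2 reads in wild type 1-b to 4-b. The 7 Il1rn-/- libraries together held 10 reads, or 0.438 CPM of the scaled libraries (exact Poisson 95% interval 0.210 to 0.805), against 28 reads, or 1.46 CPM (0.972 to 2.11), in the 7 wild-type libraries. Both intervals cover counting error only. On the log2 CPM scale the 3 Il1rn-/- values of set a, at -3.58, -0.23 and -1.72, lay below the 3 wild-type values at 1.04, 0.02 and 0.88, as they did for 3.61% of tested genes, with 4.36% above. In set b they overlapped, at -3.58, 0.16, -0.49 and -0.40 in Il1rn-/- and 0.52, -0.36, 1.27 and 0.24 in wild type. Il18 passed the filter of more than 1 CPM in 3 or more libraries through wild type. Of the Il1rn-/- libraries only 2-b, at 1.12 CPM, exceeded 1 CPM. Lower Il18 values in Il1rn-/- and the shares of tested genes beside them are therefore a description only.

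The Il18 mean was -1.41 ± 1.60 log2 CPM in Il1rn-/- and 0.52 ± 0.58 in wild type (n = 7 each), and the difference was -1.92 ± 0.71 (95% interval -3.42 to -0.43). Its size depended on the prior count added before the log, since -3.58 stands for 0 reads, and it was -0.92 with a prior count of 2. With the library group in place of the letter it was -2.01 ± 0.71, and the deep libraries alone gave -1.93 ± 0.79 (-3.78 to -0.09), with all 5 Il1rn-/- libraries below all 3 wild-type ones, as for 1.01% of tested genes, with 0.852% above. The difference between sets was 1.00 ± 1.47 (-2.09 to 4.08). The gene Bco2, annotated on the opposite strand at the same place with no exonic overlap, had 0 to 3 reads in both genotypes. Macrophages are known to express Il18, and of their markers Lyz2 had 3 to 81 reads, Itgam 0 to 16, Cd68 0 to 10 and Csf1r 0 to 6 reads per library, while Fcgr1, Mertk and Cd14 were at 0 in 10 or more libraries. The summed markers were 48.1 to 139 CPM in Il1rn-/- and 30.2 to 197 CPM in wild type, and the part of such cells in the Il18 reads was not tested.

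**Figure D4:**
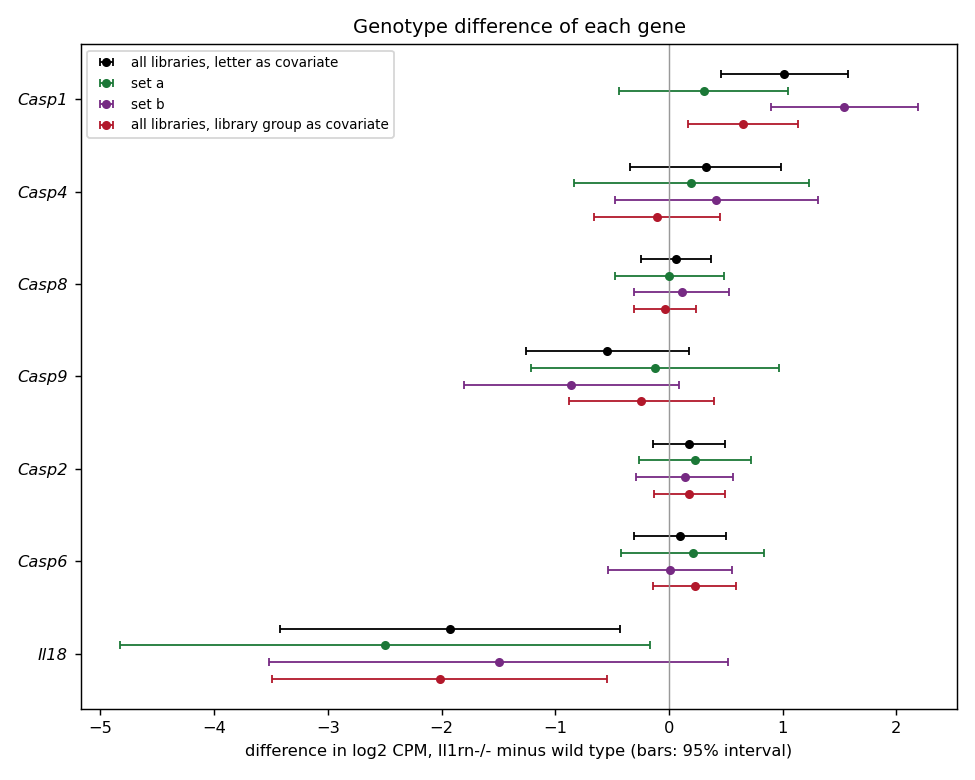
Genotype difference (Il1rn-/- minus wild type, log2 CPM) of each gene with its 95% interval, over all libraries with the letter as covariate, in set a, in set b, and over all libraries with the library group as covariate. Casp1 runs from 0.31 in set a to 1.54 in set b, Il18 lies below 0 in all 4, and Casp4 and Casp8 change sign with the library group as covariate.

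Genes that act with the caspases were taken as whole lists by role, and each list is described by its counts and median beside those of all genes. None of their tested members passed in either direction (limma, all adjusted p 0.787 or above). Over all tested genes the median difference was 0.04, with 6815 positive and 5514 negative.

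Upstream of caspase-1, 9 of 14 inflammasome sensors and adaptors were in the table and 5 were tested, with 4 differences positive, 1 negative and a median of 0.11. Pycard, the ASC adaptor that joins sensors to caspase-1, averaged 6.01 ± 0.30 log2 CPM in Il1rn-/- and 6.17 ± 0.41 in wild type, with a difference of -0.16 ± 0.17. Nek7, a kinase that licenses NLRP3, had 0.11 ± 0.26, and Aim2, the sensor of cytosolic DNA, had 0.09 ± 0.23. Nlrp3 itself had no row among the genes analysed here. Naip2 and Nlrc4, the sensor pair for bacterial secretion proteins, had 0.55 ± 0.60 and 0.66 ± 0.87 and were weakly expressed, with 0 to 55 reads.

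Downstream of caspase-1, 3 of 5 pyroptosis effectors and substrates were tested, with 2 differences positive and a median of 0.12. Il1b and Gsdme did not pass the filter on low values and were not tested. Gsdmd, which encodes gasdermin D, averaged 5.94 ± 0.44 log2 CPM in Il1rn-/- and 5.53 ± 0.55 in wild type, with a difference of 0.40 ± 0.19, or 0.16 once the library group replaced the letter. Hmgb1, a nuclear protein released from dying cells, had -0.59 ± 0.27, and 0.03 with the library group. Ninj1, which ruptures the membrane of dying cells, had 0.12 ± 0.22. The IL-18 receptor genes Il18r1 (0.34 ± 0.32) and Il18rap (0.07 ± 0.38) and the decoy Il18bp (0.70 ± 0.69) had a median of 0.34, or -0.14 once the library group replaced the letter.

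Around caspase-8, 12 death receptor and necroptosis genes were tested, with 7 differences positive, 5 negative and a median of 0.04, the same as for all genes. Cflar, the FLIP inhibitor of caspase-8, had -0.14 ± 0.15, Cyld, a deubiquitinase of the receptor complex, 0.08 ± 0.17, and Fas, the death receptor, 0.24 ± 0.19. Bid, which caspase-8 cuts to engage mitochondria, had 0.23 ± 0.17, and Mlkl, the necroptosis effector, had -1.64 ± 0.92 from 0 to 9 reads per library.

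Around caspase-9, 8 apoptosome and mitochondrial genes were tested, with 4 differences positive, 4 negative and a median of -0.11. Diablo, which antagonises the inhibitors of apoptosis, had 0.12 ± 0.16, Bax, a pore former, -0.26 ± 0.21, and Aifm1, the apoptosis-inducing factor, 0.13 ± 0.16. Cycs, which encodes cytochrome c, had -1.08 ± 0.51 with the letter and 0.00 with the library group as covariate, and Bak1, a pore former like Bax, had -1.24 ± 0.93 and -0.19. For caspase-2, the PIDDosome genes Cradd and Pidd1 had -0.19 ± 0.29 and 1.15 ± 0.70, or -0.11 and 0.50 with the library group, and Pidd1 rested on 0 to 53 reads. The median of these 2 was 0.48 with the letter and 0.20 with the library group, 0.02 by limma voom, -0.16 in deep libraries alone, and 0.16 without wild type 3-b.

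Of 6 caspase inhibitors, 4 differences were positive and the median was 0.12, against 0.04 for all genes. Birc6 had 0.13 ± 0.17, Birc3 0.19 ± 0.16 and Birc2 0.46 ± 0.22, and Birc2 had 0.14 with the library group in place of the letter, while Birc5 had -0.15 ± 0.23 and the granzyme inhibitor Serpinb9 0.11 ± 0.26. Of 10 caspase substrates, 6 differences were positive and the median was 0.05, with the kinase Pak2 at 0.27 ± 0.19, the spectrin Sptan1 at 0.15 ± 0.16 and the DNA repair enzyme Parp1 at 0.07 ± 0.15. Dffb, the nuclease of apoptotic DNA cleavage, had 0.40 ± 0.23, and Acin1, a chromatin condensation factor, had 0.33 ± 0.21.

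Interferon regulators and guanylate-binding proteins, known to induce Casp1 and Casp4 or to act with caspase-11, numbered 17, with 13 differences positive, 4 negative and a median of 0.15, or 0.09 with the library group. Gbp2 averaged 6.40 ± 0.28 log2 CPM in Il1rn-/- and 6.03 ± 0.27 in wild type, with a difference of 0.37 ± 0.15. The differences were 0.33 ± 0.20 for Gbp7 and 0.62 ± 0.39 for Irf1, while Irf2, which antagonises Irf1, had -0.54 ± 0.20. With the library group in place of the letter these were 0.30 for Gbp2, 0.03 for Gbp7, 0.06 for Irf1 and -0.27 for Irf2.

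**Figure D5:**
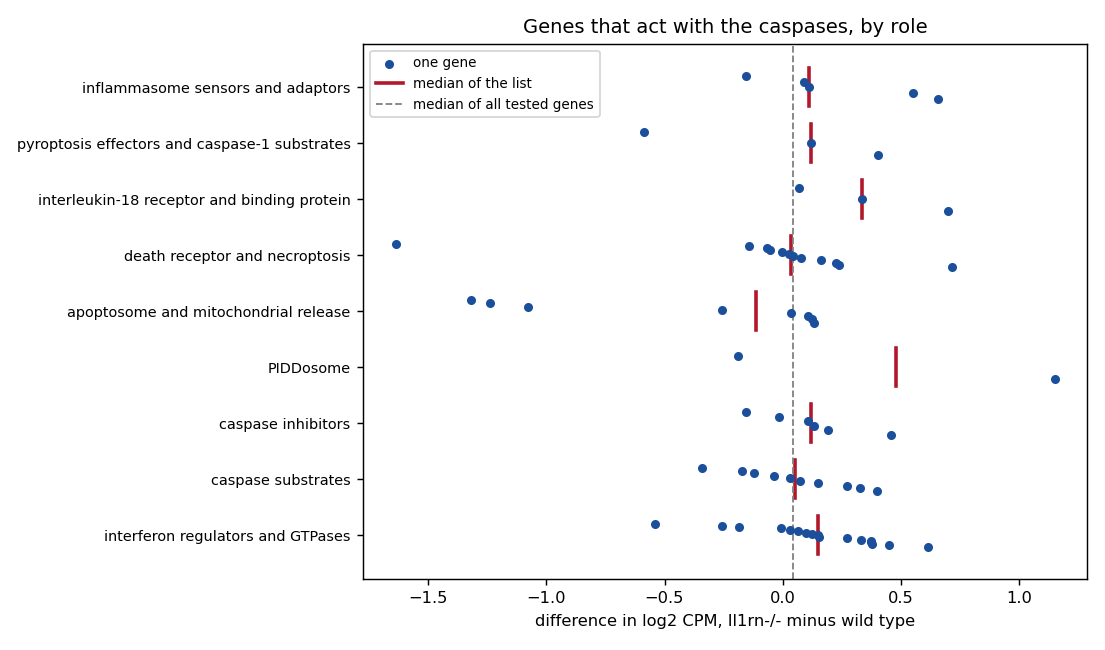
Genotype difference (Il1rn-/- minus wild type, log2 CPM) of each tested gene of the lists by role (points), the median of each list (red bars) and the median of all 12329 tested genes (dashed line at 0.04). The list medians run from -0.11 for the apoptosome list to 0.48 for the PIDDosome list, and no point passed the test across all genes.

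Once the means of the deep and shallow groups were removed, the 6 genes most like Casp1 held no caspase. Likeness was Pearson's r with Casp1 over the 14 libraries after that removal, among 7193 genes with a mean of at least 3 log2 CPM. It is a description, and genotype was not removed, so the genotype difference of Casp1 enters r. The 6 highest were Gpm6b, a membrane glycoprotein (0.845), Spg7, a mitochondrial protease (0.774), Osbpl11, an oxysterol-binding protein (0.770), Dynlt3, a dynein light chain (0.763), Ddx58, the RNA sensor RIG-I (0.762), and Smarca5, a chromatin remodeller (0.760). Within the 8 deep and the 6 shallow libraries r was 0.816 and 0.873 for Gpm6b, against 0.333 and 0.942 for Spg7. With the group means left in, Osbpl11 had an r of -0.08 and Ddx58 of 0.22 over the 14 libraries, so the levels of these 2 did not follow Casp1 across the groups. Of the 6 genes, 0 were among the 6 highest in deep libraries alone, 3 with the group means left in, and 1 to 6 when 1 library was left out, with 3 or fewer kept without Il1rn-/- 2-a, 1-b or 2-b or without wild type 1-b, 3-b or 4-b.

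Casp4 ranked 912 by likeness, with an r of 0.316 over the 14 libraries. It followed Casp1 in the 8 deep libraries (r = 0.778) and not in the 6 shallow ones (r = -0.06), where Casp4 had 6 to 16 reads. Over the 14 libraries Casp2 had 0.247, Casp6 0.208, Casp9 -0.09 and Casp8 -0.21, and Il18 was under the level of 3 log2 CPM. Following Casp1 in part of the libraries was not particular to Casp4. Casp6 (r = 0.959) and Casp2 (0.770) did so in the shallow libraries and not in the deep ones (-0.249 and -0.134). Casp8 had -0.03 in deep and -0.60 in shallow libraries, and Casp9 had 0.01 and -0.17.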

How the data were processed

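RNA of 14 libraries of sorted cells was profiled with Smart-Seq2, a low-input method, with Cuffquant 2.2.1 as the quantifier, per the labels' protocols. Tools named in the submitters' processing notes are Cuffnorm, Cufflinks 2.2.1, TopHat2 2.0.10 and BWA. Genome build, annotation, strand handling and the tool that wrote the table: none is given in the sources used here. The authors deposited log2 CPM values for 14449 genes (165 lack a symbol), logged after a small prior count was added. The lowest value, -3.58, is that of 0 reads, and whole reads were recovered from the steps above it (100% of values within 0.001 of a whole number). Depth and its precision stand with the results.

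The filter asked for more than 1 CPM in 3 or more libraries and left 12329 genes. The model was limma 3.58.1 (R 4.3.3) with the trend option and terms for genotype and letter, with two-sided p-values adjusted after Benjamini and Hochberg at 0.05. The sets were compared in a second model with a term per genotype and letter. Intervals cover 95%. Other steps used Python 3.11.15, numpy 2.4.6 and scipy 1.17.1, and the models were tested on simulated data. Promoter windows came from RefSeq on GRCm38.p6 and exon lengths from GENCODE M21, with all 7 genes matched by symbol. A library was called shallow when Rn45s took over 50% of its reads, and positive for Y-linked transcripts from 20 reads.

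The members and lists were chosen with earlier results of these data known. Named genes were the 7 members, up to 3 genes per list with the highest mean level and up to 2 others with the smallest unadjusted p, and the 6 genes most like Casp1. Some genes the rule names, and 1 list that needs them, are not reported here. Alternatives covered the filter, scaling, prior count, letter term, library group, replicate block, limma voom, each library left out, and subsets of libraries. Every library entered the main models.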

Additional observations from a re-analysis of the deposited data

Results flagged for a closer look

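Of 28 groups of 4 to 10 libraries tested over the 7 genes, 3 held a library set apart from the others of its group by Dixon's criterion, where chance marks about 1 in 20 groups. Casp2 was at 5.02 log2 CPM in Il1rn-/- 3-b, below the 6 other Il1rn-/- libraries. Casp6 was at 3.66 log2 CPM in wild type 2-a, below the 6 other wild-type libraries. Casp8 was at 7.46 log2 CPM in wild type 3-a, above the 6 other wild-type libraries.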

How the results depend on the processing

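Across 25 alternatives the genotype difference kept its sign in 25 for Casp1 (0.28 to 1.21), Casp2, Casp9 and Il18 (-2.34 to -0.92), in 22 for Casp4, 23 for Casp6 and 20 for Casp8. Genes called were 0 in the main model and 2 with deep libraries alone or 13 with shallow libraries alone, none of them among the 7. With deep libraries alone the Casp1 difference was 0.28, the IL-18 receptor list's median -0.50 and the caspase inhibitors' -0.11. With shallow libraries alone the interferon list's median was -0.0091. The cause of these changes was not tested.

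Leaving out 1 library at a time, the difference was 0.87 to 1.21 for Casp1, 0.10 to 0.26 for Casp2, 0.11 to 0.50 for Casp4, -0.03 to 0.20 for Casp6, -0.02 to 0.15 for Casp8, -0.68 to -0.27 for Casp9 and -2.18 to -1.52 for Il18, with 0 genes called each time. The difference between sets was then 0.90 to 1.45 for Casp1, -0.20 to 0.12 for Casp2, -0.17 to 0.56 for Casp4, -0.38 to 0.10 for Casp6, -0.11 to 0.23 for Casp8, -1.05 to -0.27 for Casp9 and 0.13 to 1.83 for Il18. The sign turned without Il1rn-/- 3-b for Casp2, Casp4 and Casp8, without wild type 3-a for Casp2 and Casp8, without wild type 2-a for Casp6, and without Il1rn-/- 1-a or wild type 4-b for Casp4. With reads scaled outside Rn45s the Casp8 difference between sets was -0.058. Of the 6 genes most like Casp1, 1 to 6 were kept when 1 library was left out, 0 in deep libraries alone, and 3 when library group means were not removed, an alternative chosen after seeing the data.

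Same-numbered libraries of the 2 genotypes did not deviate together (r -0.15 to 0.0005 over 7 pairs). The deviations were taken from means of only 3 or 4 libraries, of unlike depth in Il1rn-/- set b. They therefore cannot decide whether the numbers mark pairs. With the replicate number as a block 0 genes were called, 633 had an unadjusted p under 0.05, and the Casp1 difference was 1.01. Some genes had few reads, which fell to 0 for Il18, 5 for Casp1, 6 for Casp4 and 10 for Casp9. The lowest counts of Casp1 and Casp4 were in the shallow wild type 3-b, and that of Casp9 was in the deep Il1rn-/- 3-b. Il18 was at 0 in the deep Il1rn-/- 1-a and the shallow Il1rn-/- 1-b.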
